A study of Mus musculus with 6 samples.

Results

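A set of 10 genes used as markers of portal fibroblasts and of adventitial fibroblasts were followed in sorted fetal liver mesenchyme: Fbln1, Fbln2, Mfap5, Dpt, Clec3b, Gas6, Entpd2, Thy1, Cd34 and Pi16. They were taken by symbol from a list, and all 10 were found among the 54532 genes of the table. The samples were eYFP-positive cells sorted from livers of CD-1 mouse embryos at embryonic day 18 (E18, 3 libraries, replicates A, B and C) and at embryonic day 16 (E16, 3 libraries, replicates A, B and C). All embryos were Sm22-Cre/ROSA26RYFP: Cre under the Sm22 promoter, active in smooth muscle and related mesenchyme, switches on the YFP reporter in a cell and its descendants, so cells that once used the promoter are sorted too. No untreated or reporter-free sample is part of the comparison. Whether replicates derive from different litters or pooled embryos is not stated by the labels, and p-values therefore cover only the spread seen among these libraries, which may be technical. Where 3 values are given for a day, they stand in the order of replicates A, B and C.

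Portal fibroblasts lie in the connective tissue around the portal vein and bile ducts, and adventitial fibroblasts form the outer coat of larger vessels. Both lay down collagen and elastic fibres, and they are set apart from hepatic stellate cells, which line the sinusoids and store vitamin A. None of the 10 genes is exclusive to these cells. Cd34 is also made by vascular endothelium and blood progenitors, and Thy1 by T cells and neurons. In bulk RNA a change in the share of a cell type and a change in RNA per cell cannot be told apart.

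At E18 all 10 markers stood higher than at E16 in every library, and 7 of the 10 rose by limma's test: Dpt, Fbln1, Gas6, Cd34, Clec3b, Thy1 and Fbln2. Dermatopontin (Dpt) had the largest ratio of mean levels, with a mean of 32.2 TPM at E18 and 1.34 TPM at E16 (TPM is transcript abundance per length, scaled to the same total in every library). Entpd2 and Mfap5 were tested and did not pass, and Pi16 was too low to be tested. None of the 10 was called lower. A gene was tested when it reached 1 TPM in at least 3 of the 6 libraries, and called at an adjusted p under 0.05. Of all 17824 genes tested, 3.08% were called higher and 0.387% lower, 18.4% had every E18 value above every E16 value, and 8.05% had every E18 value below. Only 4 of the markers, Fbln1, Fbln2, Dpt and Gas6, reached 1 TPM in every E16 library. Thy1 did so in 1 E16 library, Cd34 and Clec3b in 2, and Entpd2 and Mfap5 in 0, so these 5, with 3 of the 7 calls among them, entered the test only through their E18 levels. Over the 10 markers, the median log2 difference was 2.45, against 0.10 over the 29216 genes above 0 in any library. The count of 7 rested on all 6 libraries: it was 0 without E18 replicate A, E18 replicate B, E16 replicate A or E16 replicate C, 1 (Dpt) on leaving out E16 replicate B, and 5 on leaving out E18 replicate C. In each of these fits all 9 tested markers were still higher at E18, with an unadjusted p under 0.05.

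**Figure D1:**
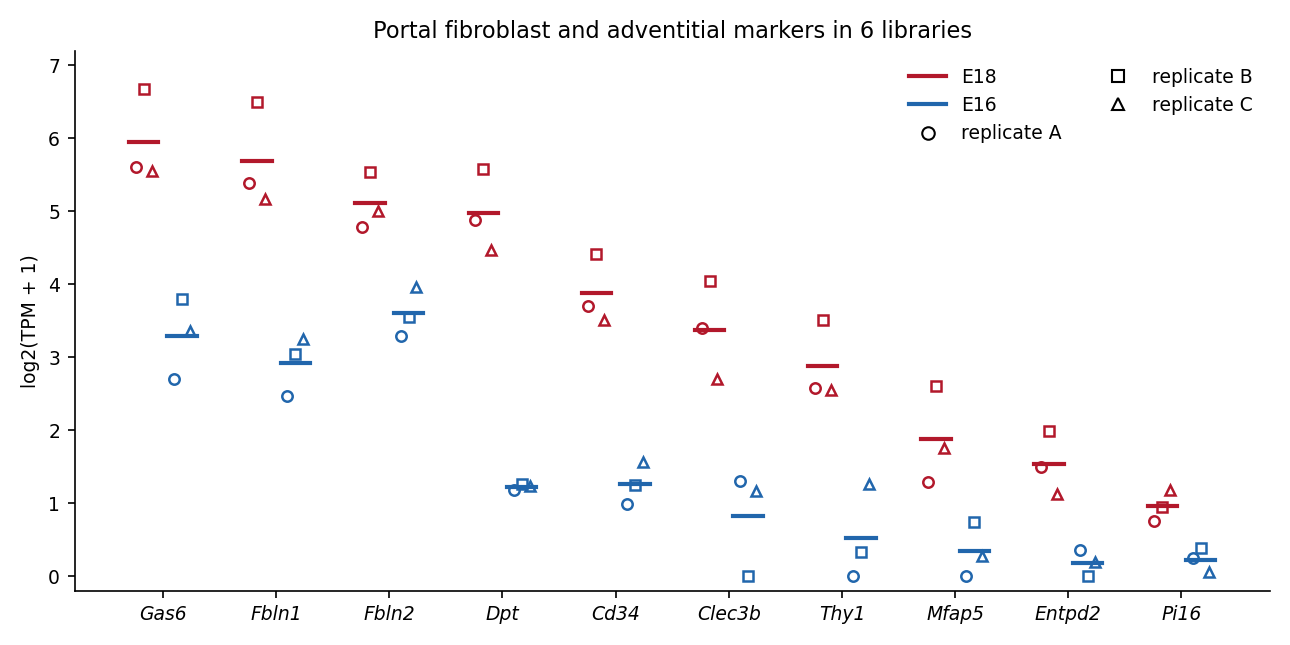
Level of each marker as log2(TPM + 1) on the vertical axis in the 3 E18 libraries (red) and the 3 E16 libraries (blue); symbols give the replicate letter and bars the mean. No gene's E18 and E16 values overlap, and E18 replicate B is the highest library for 9 of the 10 genes.

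The libraries also held transcripts of other cells. Summed over 10 erythroid genes, TPM ran from 10570 to 18599 at E18 and from 5349 to 7181 at E16, and over 11 hepatocyte genes from 389.8 to 998.9 at E18 and from 2134 to 8927 at E16. Their part in the results below was not tested beyond a hepatocyte covariate and a rescaling without both lists. No erythroid covariate was fitted. Tagln, the gene whose promoter drove Cre, averaged 3.14 ± 0.258 TPM at E18 and 1.06 ± 0.408 TPM at E16 (SD, n = 3 each). Depth, recovered from the TPM and exon lengths, was 14587555 to 18281952 reads at E18 and 21130206 to 22626881 at E16. A single noncoding gene, Gm26917, held 225978 to 259830 TPM at E18 and 198072 to 339083 TPM at E16.

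RefSeq windows of the 250 bases before the transcription start (GRCm38.p6, the assembly of mm10) are shown for the 4 markers with the highest E18 level. All 4 were called higher, with log2 fold changes from 1.51 (Fbln2) to 3.75 (Dpt). Each is on the strand of its gene, and capitals mark matches, on either strand, to a GC box (GGGCGG) or an E-box (CAGCTG).
Gas6 chr8:13494536-13494785, minus strand: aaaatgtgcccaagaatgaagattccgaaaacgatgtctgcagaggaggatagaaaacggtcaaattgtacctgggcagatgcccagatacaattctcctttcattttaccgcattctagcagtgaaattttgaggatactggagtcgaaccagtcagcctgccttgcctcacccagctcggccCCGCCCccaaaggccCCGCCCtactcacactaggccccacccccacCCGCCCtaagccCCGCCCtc
Fbln1 chr15:85205758-85206007, plus strand: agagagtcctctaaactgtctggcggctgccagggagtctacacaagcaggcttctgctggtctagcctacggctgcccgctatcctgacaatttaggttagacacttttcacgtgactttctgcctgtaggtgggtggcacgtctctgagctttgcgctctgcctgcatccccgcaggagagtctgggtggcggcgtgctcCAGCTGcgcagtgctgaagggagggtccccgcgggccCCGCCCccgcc
Fbln2 chr6:91212514-91212763, plus strand: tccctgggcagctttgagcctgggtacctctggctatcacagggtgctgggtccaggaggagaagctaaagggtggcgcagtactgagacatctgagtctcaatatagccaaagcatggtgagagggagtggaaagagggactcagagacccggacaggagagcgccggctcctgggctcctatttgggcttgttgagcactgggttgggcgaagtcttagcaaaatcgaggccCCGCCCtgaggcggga
Dpt chr1:164796413-164796662, plus strand: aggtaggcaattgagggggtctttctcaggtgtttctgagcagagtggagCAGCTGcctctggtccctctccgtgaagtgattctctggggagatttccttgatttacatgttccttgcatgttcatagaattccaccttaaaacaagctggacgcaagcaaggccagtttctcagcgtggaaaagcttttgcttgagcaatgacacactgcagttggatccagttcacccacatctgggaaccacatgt
The Gas6 window holds 4 GC boxes, the first bases of which lie 66, 51, 20 and 8 bases before the start. The Fbln1 window shown has 1 GC box, 11 bases before the start; the other Fbln1 window (chr15:85205699-85205948), which ends just before the GENCODE gene start, holds none of the 7 motifs searched. The Fbln1 window with matches was chosen for display. Fbln2 has 1 GC box, 16 bases before its start, while the Dpt window has an E-box and no GC box. Windows were found for 7 markers, 8 windows in all, since Fbln1 has 2; Thy1, Clec3b and Mfap5 are named only. A GC box stood in 4 of the 8 windows, against 32.7% of 32851 windows of all genes, the E-box in 2 of 8, against 13%, and the TATA box TATAAA in 0 of 8, against 12.4%. The CCAAT box (CCAAT), the TEAD motif (GGAATG) and the AP-1 motif (TGANTCA) were each in 1 of 8, against 33.8%, 12.6% and 6.75%, and the GLI motif (GACCACCCA) was in 0 of 8, against 0.225%. These are matches of letters in a window. The RefSeq starts of Fbln1, Fbln2 and Dpt lie inside the GENCODE gene spans given with their values.

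Fibulins are secreted glycoproteins built into elastic fibres and basement membranes. Fbln1 (chromosome 15, 85205949 to 85286535, plus strand, mm10) had 41.0, 89.7 and 35.1 TPM at E18, against 4.53, 7.27 and 8.48 TPM at E16. Every E18 library was above every E16 library, and the log2 fold change was 2.77 ± 0.38 (SE; limma adjusted p = 0.0307). Fbln2 (chromosome 6, 91212455 to 91272540, plus strand), a fibulin of vessel walls and portal tracts, had 26.6, 45.3 and 31.0 TPM at E18, against 8.76, 10.7 and 14.6 TPM at E16. It rose by 1.51 ± 0.26 on the log2 scale (limma adjusted p = 0.0372), the smallest rise of the 7 that passed. The 2 fibulins stood in a different order on each day. Fbln1 over Fbln2 was 1.54, 1.98 and 1.13 at E18, against 0.517, 0.678 and 0.582 at E16, so Fbln1 was above Fbln2 in 3 of 3 E18 libraries and below it in 3 of 3 E16 libraries. The exact 2-sided permutation p of this ratio was 0.1, the smallest that 3 against 3 libraries allow, and the ratio was chosen after its values were seen.

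Mfap5 (chromosome 6, 122505845 to 122529290, plus strand), a glycoprotein of the fibrillin microfibrils around which elastin is laid, was far lower than the fibulins. It had 1.45, 5.06 and 2.37 TPM at E18, against 0, 0.671 and 0.215 TPM at E16. These values did not overlap but did not pass (log2 fold change 1.54 ± 0.43; limma adjusted p = 0.0943), and the log2 fold change was 3.22 with a pseudocount of 0.1 and 0.56 with one of 5. They rest on 153 reads at E18 and 21 at E16.

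Among 13 relatives in the fibulin and microfibril families, 7 rose and none fell, and all but Mfap3 had E18 values wholly above E16. The median log2 fold change of the 13 was 2.52, and that of all tested genes 0.07. The latent TGF-beta binding proteins Ltbp2 and Ltbp4 rose by 4.15 ± 0.40 and 2.96 ± 0.38, and the fibrillins Fbn1 and Fbn2, the core of the microfibril, by 2.80 ± 0.43 and 2.92 ± 0.46 (log2 ± SE; limma adjusted p from 0.0191 to 0.0331). Mfap2, the sister of Mfap5, averaged 72.5 ± 58.8 TPM at E18 and 9.13 ± 4.59 TPM at E16 (SD, n = 3), short of the threshold (limma adjusted p = 0.0574). Per length, Mfap2 was therefore the more abundant of the pair on both days.

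Dpt (chromosome 1, 164796644 to 164824266, plus strand) is a matrix protein that binds decorin and promotes the assembly of collagen fibrils. It had 28.5, 47.0 and 21.1 TPM at E18, against 1.27, 1.40 and 1.34 TPM at E16. The E16 libraries were close to each other (SD 0.0617 TPM), and even the lowest E18 library was well above them. The rise of 3.75 ± 0.32 on the log2 scale (limma adjusted p = 0.0153) was at rank 10 among all genes tested. Of 8 partners of dermatopontin, 5 rose and none fell, led by the proteoglycans Bgn (3.25 ± 0.45), Dcn, the decorin gene itself (2.54 ± 0.39), Lum (2.503 ± 0.458) and Fmod (1.94 ± 0.34; log2 ± SE, limma adjusted p from 0.0314 to 0.0398). Tgfb2 rose as well (limma adjusted p = 0.0433), while Tgfb1, the most abundant TGF-beta ligand gene on either day, averaged 42.6 ± 4.75 TPM at E18 and 47.8 ± 9.12 TPM at E16 (SD, n = 3; limma adjusted p = 0.694).

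Clec3b (chromosome 9, 123150946 to 123157432, plus strand) encodes tetranectin, a secreted lectin that binds plasminogen. It had 9.59, 15.4 and 5.47 TPM at E18, against 1.48, 0 and 1.25 TPM at E16. The days did not overlap, though E16 counts were thin, at 18 reads over 3 libraries against 142 at E18. The log2 fold change was 2.55 ± 0.50 (limma adjusted p = 0.0444), close to the threshold. It was not called with a pseudocount of 0.1 (limma adjusted p = 0.103), where the log2 fold change was 3.98, nor with one of 5 (1.32; limma adjusted p = 0.0555). Over the 21 alternative fits of Clec3b the adjusted p ran from 0.00479 to 1.0.

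Pi16 (chromosome 17, 29317680 to 29330593, plus strand), a CAP-superfamily protein that marks adventitial fibroblasts of many organs, was the lowest marker at E18. It had 0.682, 0.933 and 1.27 TPM at E18, against 0.184, 0.302 and 0.0387 TPM at E16. The groups did not overlap, and unlike the other 9 markers the highest library was E18 replicate C. An exact 2-sided permutation test gave p = 0.1, the smallest possible. Of 7 relatives in the CAP and C-type lectin families, 4 were tested and limma called 0, with 3 at an unadjusted p under 0.05 and 1 called by limma's voom on recovered reads. Crispld2, a secreted CAP protein, averaged 6.92 ± 3.84 TPM at E18 and 0.781 ± 0.352 TPM at E16 (SD, n = 3; limma adjusted p = 0.0505).

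Gas6 (chromosome 8, 13465374 to 13494490, minus strand) is a vitamin K-dependent ligand of the receptor kinases Tyro3, Axl and Mertk. It was the most abundant of the 10 markers at E18, with 47.9, 101 and 45.8 TPM, against 5.52, 12.9 and 9.21 TPM at E16. Every E18 library was above every E16 library, a rise of 2.66 ± 0.38 on the log2 scale (limma adjusted p = 0.0314). Of its receptors, Axl rose by 2.58 ± 0.44 (limma adjusted p = 0.0362), with 32.6, 63.9 and 27.7 TPM at E18 and 2.91, 5.89 and 9.76 TPM at E16. Tyro3 averaged 2.39 ± 1.57 TPM at E18 and 0.710 ± 0.393 TPM at E16 (SD, n = 3; limma adjusted p = 0.266). Mertk averaged 5.43 ± 4.34 TPM at E18 and 2.13 ± 0.772 TPM at E16 (SD, n = 3; limma adjusted p = 0.409). Axl had the highest mean of the 3 receptors on both days. Pros1, which encodes protein S, the other vitamin K-dependent ligand of this family, rose by 2.27 ± 0.42 (limma adjusted p = 0.0413). Gas6 over Pros1 was 3.79 ± 0.310 at E18 and 3.53 ± 0.738 at E16 (SD, n = 3), and the values overlapped (exact 2-sided permutation p = 0.8). The carboxylase Ggcx and the reductases Vkorc1 and Vkorc1l1, which these ligands need to become active, were not called, and Ggcx averaged 24.3 ± 10.1 TPM at E18 and 20.9 ± 4.31 TPM at E16. In all, 2 of these 7 genes were called higher and none lower.

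Entpd2 (chromosome 2, 25395874 to 25401321, plus strand) is a cell-surface enzyme that breaks down extracellular ATP and in liver marks portal fibroblasts. It had 1.81, 2.98 and 1.19 TPM at E18, against 0.275, 0 and 0.145 TPM at E16. The groups did not overlap, but the log2 fold change of 1.36 ± 0.35 did not pass (limma adjusted p = 0.0767), and the values rest on 60 reads at E18 and 6 at E16. The log2 fold change was 3.23 with a pseudocount of 0.1, 0.44 with one of 5 and 3.86 by voom on recovered reads, and the ratio of mean TPM was 14.2. Exons of Npdc1, on the same strand, cover 28.8% of the Entpd2 exon bases, so its level is uncertain. Npdc1 averaged 5.62 ± 2.41 TPM at E18 and 0.777 ± 0.413 TPM at E16 (SD, n = 3; limma adjusted p = 0.0508). Among 13 other ectonucleotidase and adenosine genes 8 were tested and limma called 0, with 1 (Entpd6) at an unadjusted p under 0.05 and also called by voom on recovered reads. The median log2 fold change of the 8 was -0.01. Entpd6 averaged 11.1 ± 1.80 TPM at E18 and 19.2 ± 0.643 TPM at E16 (SD, n = 3; limma adjusted p = 0.0716). Nt5e, which makes adenosine at the last step of this chain, averaged 1.19 ± 0.589 TPM at E18 and 0.904 ± 0.190 TPM at E16. The vascular enzyme Entpd1, under the filter, had 1.54, 2.27 and 0.778 TPM at E18, against 0, 0.135 and 0.249 TPM at E16.

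**Figure D2:**
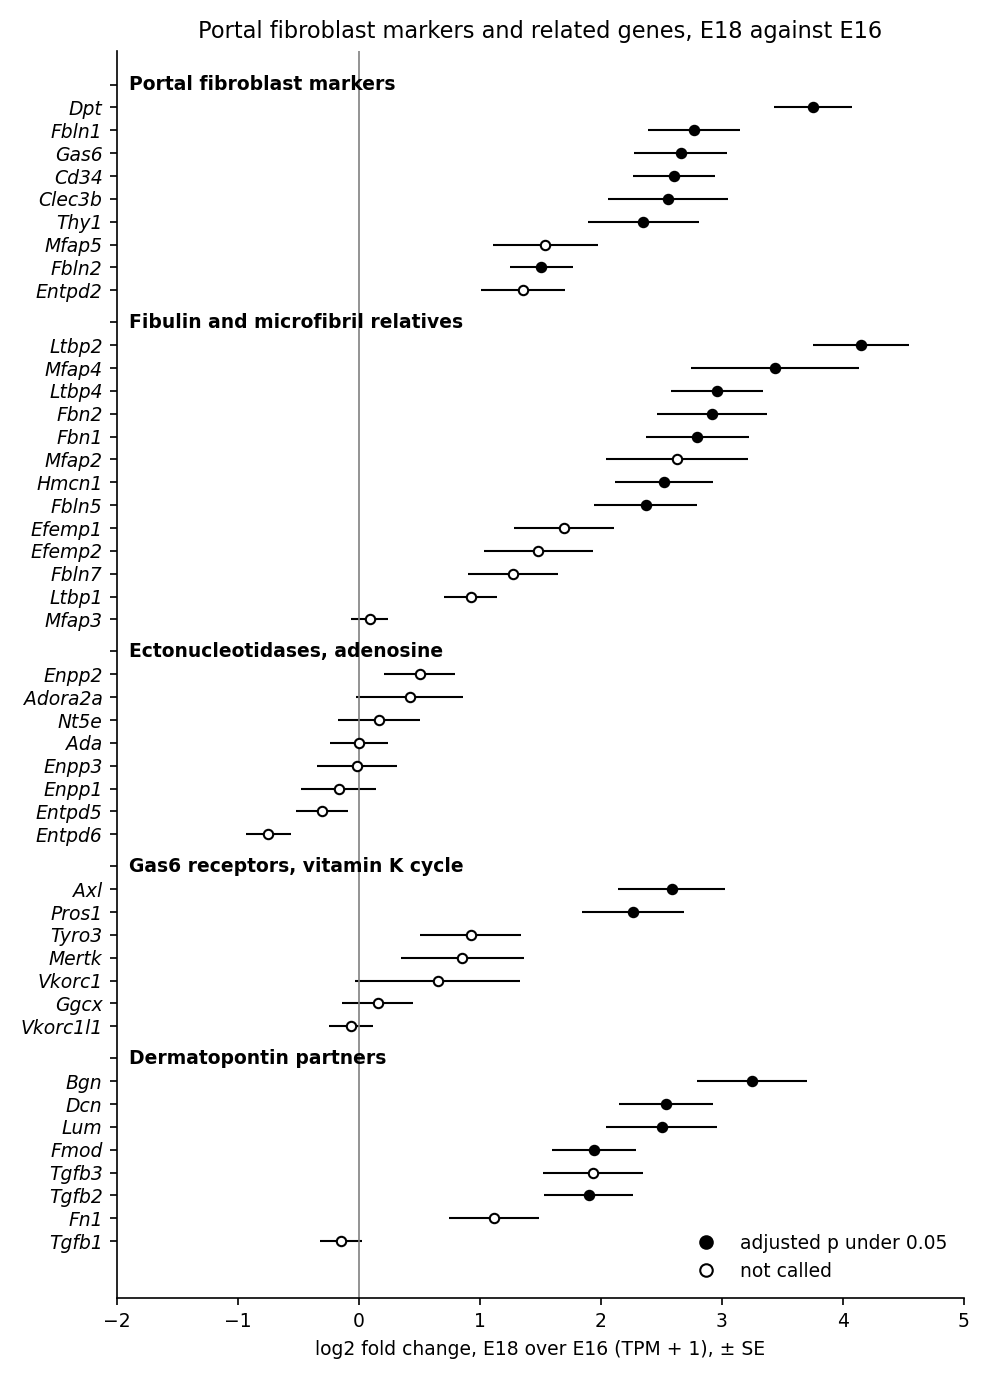
Log2 fold change of E18 over E16 with its standard error (horizontal axis, on log2(TPM + 1)) for the 9 tested markers and tested relatives of 4 kinds, grouped by family; filled points had a limma adjusted p under 0.05 with all 6 libraries. Fibulin, microfibril and proteoglycan genes lie mostly to the right, while the tested ectonucleotidase and adenosine genes other than Entpd2 lie from -0.75 (Entpd6) to 0.50 (Enpp2). Genes under the filter, such as Entpd1, are not shown.

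Thy1 (chromosome 9, 44043384 to 44048579, plus strand), a lipid-anchored surface glycoprotein of fibroblasts that binds integrins, had 4.99, 10.4 and 4.83 TPM at E18, against 0, 0.251 and 1.39 TPM at E16. The groups did not overlap, and E16 replicate C held 27 of the 32 E16 reads. The rise was 2.35 ± 0.46 on the log2 scale (limma adjusted p = 0.0439). The log2 fold change was 4.10 with a pseudocount of 0.1, 1.06 with one of 5 and 4.90 by voom on recovered reads, where Dpt had 4.42. With a pseudocount of 5 the adjusted p was 0.0575 and with quantile normalization 0.0626, and over all 20 alternative fits of Thy1 it ran from 0.0163 to 1.0. Of 8 T-cell genes only Lck passed the filter, and limma called 0, with 0 at an unadjusted p under 0.05 and 0 called by voom. Lck averaged 1.38 ± 0.625 TPM at E18 and 1.68 ± 0.434 TPM at E16 (SD, n = 3), and Trac had 0.485, 2.81 and 0 TPM at E18, against 0.470, 0 and 0.165 TPM at E16. Cd4 stayed under the filter, with 0.281, 0.977 and 0.314 TPM at E18, against 0.0726, 0 and 0.115 TPM at E16. The summed TPM of the 8 was 2.62, 7.27 and 1.95 at E18, against 3.12, 1.18 and 2.89 at E16. The defining T-cell gene Cd3e had 0.111, 0.912 and 0.222 TPM at E18, against 0.323, 0 and 0 TPM at E16. The 8 neuronal and Schwann cell genes summed to 3.53 to 13.6 TPM at E18 and 2.88 to 5.14 TPM at E16, and both this sum and that of the T-cell genes were highest in E18 replicate B, where Thy1 was also highest. The part of either list in the result was not tested.

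Cd34 (chromosome 1, 194938819 to 194961279, plus strand), a sialomucin of the cell surface, had 12.0, 20.3 and 10.4 TPM at E18, against 0.984, 1.38 and 1.95 TPM at E16. The lowest E18 library was above the highest E16 library, and the rise was 2.61 ± 0.34 on the log2 scale (limma adjusted p = 0.0273). Of the endothelial and blood progenitor markers, the other known sources of Cd34, limma called none higher. Cdh5, which defines endothelium, had 0.270, 0.260 and 0 TPM at E18 and is listed at 0 in each E16 library, and Pecam1 reached at most 1.13 TPM at E18 and 0.822 TPM at E16. Genes on the opposite strand cover 2.03% of the exon bases of Cd34, 1.33% of those of Gas6 and 3.49% of those of Pi16. The 11 endothelial genes summed to 25.7 to 35.0 TPM at E18 and 32.7 to 50.3 TPM at E16, mostly Egfl7 and Vwf, and limma called 0 of the 2 that were tested, with 1 at an unadjusted p under 0.05 and 1 called by voom. The pan-leukocyte gene Ptprc reached at most 0.0597 TPM at E18 and 0.143 TPM at E16. The 10 progenitor genes summed to 143 to 262 TPM at E18 and 259 to 303 TPM at E16, and limma called 0 of 5 tested, with 2 at an unadjusted p under 0.05 and 1 (Myb, lower at E18) called by voom. Podxl, a sialomucin of the Cd34 family also made by mesothelium, averaged 134 ± 47.2 TPM at E18 and 154 ± 21.1 TPM at E16 (SD, n = 3; limma adjusted p = 0.655). Of the 9 genes listed as relatives of Cd34 or partners of Thy1, 6 were tested and Cspg4, a pericyte proteoglycan, was the 1 called, rising by 2.40 ± 0.37 (limma adjusted p = 0.0328). Cspg4 reached 1 TPM in 1 E16 library, so it entered the test only through its E18 levels.

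Ranked by mean level per length at E18, the markers ran Gas6, Fbln1, Fbln2, Dpt, Cd34, Clec3b, Thy1, Mfap5, Entpd2 and Pi16. Only Dpt and Cd34 were neighbours whose E18 ranges did not overlap. Even so, Gas6 was above Fbln1, Fbln1 above Fbln2, Cd34 above Clec3b, Clec3b above Thy1 and Thy1 above Mfap5 in 3 of 3 E18 libraries. At E16 the order was Fbln2, Gas6, Fbln1, Cd34, Dpt, Clec3b, Thy1, Mfap5, Pi16 and Entpd2, and the 1 gap without overlap lay between Fbln1 and Cd34. Fbln2 made up 16.1% of the summed TPM of the 10 markers at E18 and 35.5% at E16, and Dpt 14.5% at E18 and 4.34% at E16 (means of 3 libraries). Gas6 made up 28.7% at E18 and 28.3% at E16.

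Other genes of portal and adventitial fibroblasts were higher too: of 24, 21 were tested, 13 rose and none fell, with a median log2 fold change of 2.16. Elastin (Eln), the elastic core of vessel walls, rose by 4.17 ± 0.36, Tnxb, a tenascin that spaces collagen fibrils, by 3.42 ± 0.38, the portal fibroblast collagen Col15a1 by 3.23 ± 0.39 and the scavenging chemokine receptor Ackr3 by 2.26 ± 0.33 (log2 ± SE; limma adjusted p from 0.0153 to 0.0314). Of the called genes, Ackr3 reached 1 TPM in 0 E16 libraries, Adamts5 and Slit2 in 1 each and Col15a1 in 2, so these entered the test through E18. Dpp4, an adventitial fibroblast marker, averaged 2.69 ± 1.57 TPM at E18 and 2.19 ± 0.588 TPM at E16 (SD, n = 3; limma adjusted p = 0.892), Ly6c1 is listed at 0 in all 6 libraries, and Ly6a had 1.502 TPM in E18 replicate C and is listed at 0 in the others. Gli1, which marks perivascular mesenchyme, averaged 9.59 ± 3.70 TPM at E18 and 3.05 ± 1.77 TPM at E16, short of the threshold (limma adjusted p = 0.111).

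Other mesenchymal lists also held genes that rose. In the smooth muscle list 6 of 8 genes rose, in the mesothelial list 4 of 9 and in the stellate cell list 4 of 13. Their median log2 fold changes were 2.23, 1.54 and 1.75 in that order. E18 values lay wholly above E16 in 8, 7 and 12 genes (18.4% of all tested genes). The unadjusted limma p was under 0.05, in either direction, in 8, 8 and 13 (3720 of all 17824 tested). Of these, Krt8 of the mesothelial list was lower at E18, with a log2 fold change of -1.08. Among the genes called in these lists, Myocd and Lmod1 of the smooth muscle list reached 1 TPM in 0 E16 libraries, Rgs5 in 1 and Cygb and Des in 2, so they entered the test through E18. Actg2 rose by 3.33 ± 0.30, mesothelial Msln by 2.73 ± 0.27 and the pericyte gene Rgs5 by 2.88 ± 0.41 (log2 ± SE; limma adjusted p from 0.0153 to 0.0314). All 5 fibrillar collagen genes rose, with a median of 2.51, and their summed TPM was 2491, 5392 and 2109 at E18, against 404, 490 and 742 at E16. None of these mesenchymal lists held a gene called lower. Over the 11 hepatocyte genes 5 fell and none rose, with a median of -2.40. In the library with the lowest E16 fibrillar collagen, replicate A, 7 of the 10 markers were also at their lowest E16 value.

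**Figure D3:**
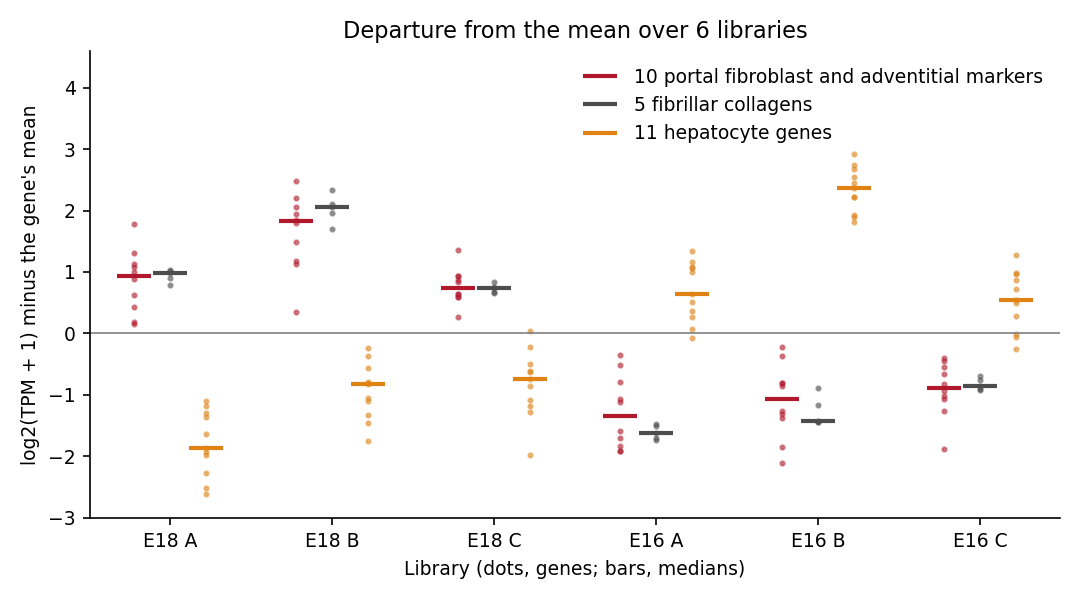
Departure of each gene from its own mean over the 6 libraries (vertical axis, log2(TPM + 1)) for the 10 markers (red), 5 fibrillar collagens (grey) and 11 hepatocyte genes (orange); dots are genes and bars medians. The marker median is 0.94, 1.82 and 0.74 in E18 A, B and C and -1.35, -1.06 and -0.88 in E16 A, B and C; that of the collagens is 0.98, 2.05 and 0.73 in E18 and -1.62, -1.43 and -0.85 in E16.

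E18 replicate B was 1.61 to 3.48 times E18 replicate A in the 9 markers it led, and the fibrillar collagen sum in it was 2.16 times that of replicate A. Without both B libraries limma called 0 of the 9 tested markers, each at an unadjusted p under 0.05, with log2 fold changes from 1.04 to 3.47. To see whether the markers moved beyond the fibrillar collagens, each was set against their summed TPM, a ratio chosen after its values were seen. Dpt stood at 11.5, 8.71 and 10.01 TPM per 1000 TPM of fibrillar collagen at E18, against 3.15, 2.85 and 1.81 at E16. Cd34 stood at 4.82, 3.77 and 4.92 at E18, against 2.44, 2.82 and 2.63 at E16. For both genes the lowest E18 ratio exceeded the highest E16 ratio. Fbln1 stood at 16.5, 16.6 and 16.6 at E18, against 11.2, 14.8 and 11.4 at E16, also without overlap. Fbln2 was lower at E18 on this scale, at 10.7, 8.40 and 14.7 at E18, against 21.7, 21.9 and 19.6 at E16. For Dpt, Cd34, Fbln1 and Fbln2 the exact 2-sided permutation p was 0.1, the smallest possible. The 10 markers together stood at 69.3 ± 6.28 at E18 and 60.1 ± 10.03 at E16 (SD, n = 3), with overlapping values. Gas6, Clec3b, Mfap5, Entpd2 and Pi16 overlapped between the days on this scale, and Thy1 had 1.92 to 2.29 at E18 and 0 to 1.88 at E16. A ratio shows unequal change and not which of its terms changed.

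**Figure D4:**
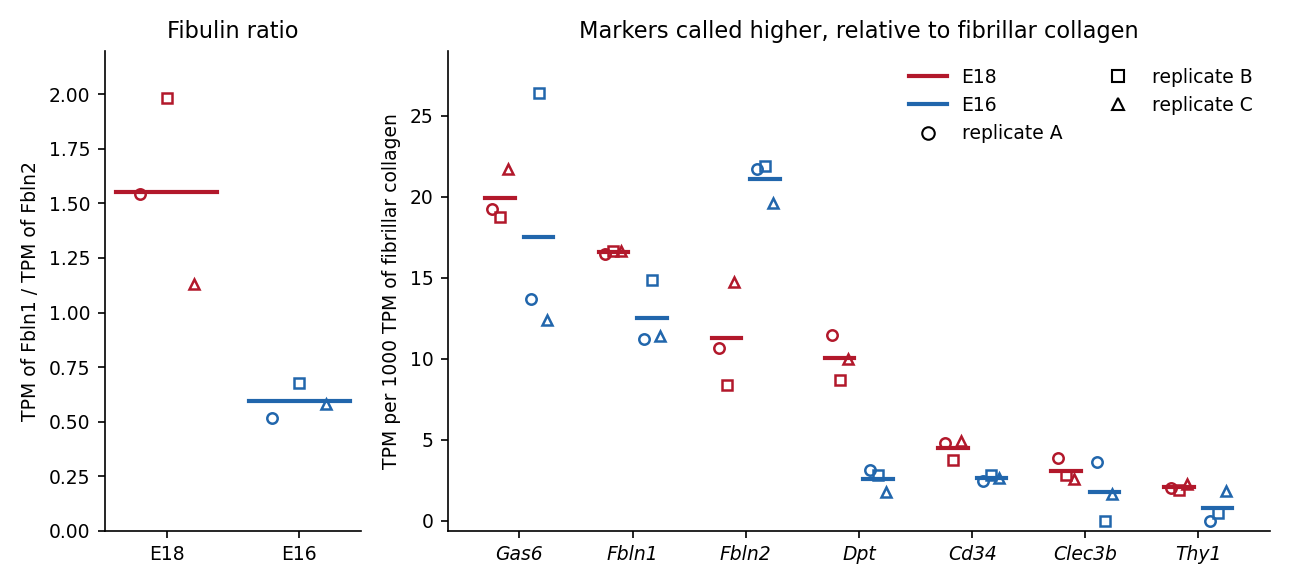
Left, TPM of Fbln1 divided by TPM of Fbln2; right, TPM of each of the 7 markers called with all 6 libraries per 1000 TPM of fibrillar collagen, in E18 (red) and E16 (blue) libraries, with symbols for the replicate letter and bars for the mean. Dpt, Cd34 and Fbln1 lie wholly higher at E18, as does Thy1 by a small margin (lowest E18 value 1.92, highest E16 value 1.88). Fbln2 lies wholly lower, while Gas6 and Clec3b overlap.

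With the mean log2 level of the fibrillar collagens as a covariate, limma called 0 of the 9 tested markers. The log2 difference left between the days was 2.24 for Dpt, the 1 marker at an unadjusted p under 0.05 (limma adjusted p = 1.0), and lay between -0.20 (Mfap5) and 0.91 (Clec3b) for the other 8. The covariate and the day move together here. With the hepatocyte level as covariate 0 of 9 were called, 6 had an unadjusted p under 0.05, and the log2 fold changes ran from 1.07 (Entpd2) to 3.83 (Dpt).

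The genes outside the list whose profile over the 6 libraries lay nearest to the mean profile of the 9 tested markers were Ptgfrn, Col5a2, Pmepa1, Col12a1 and Angptl2. Likeness was the root mean square difference of log2(TPM + 1) after centring each gene, and it was 0.091, 0.093, 0.099, 0.117 and 0.118 in that order, with 1 predicted gene model also in this range. Among the markers themselves Cd34 lay nearest to their mean profile (0.143) and Dpt farthest (0.718). Col5a2, a chain of fibrillar collagen V, had 65.9, 137 and 56.1 TPM at E18, against 11.8, 14.9 and 18.0 TPM at E16, with E18 replicate B highest as for Cd34.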

How the data were processed

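The deposited table holds TPM made by the authors for 54532 genes in 6 libraries. The genome mm10 and the tools HTSeq 0.5.4p3, HISAT2 2.1.0, Bowtie and FastQC 0.11.7 are named per the submitters' processing notes, which state no roles. Strand setting, annotation and TPM formula were not given in the sources used here. A stranded total RNA kit was used, per the labels' protocols. Symbols covered 54409 identifiers. Exons came from GENCODE M21 on GRCm38. TPM times exon length gave whole reads, within 0.05 of a read, for 96.8% to 97.1% of values above 0, though not for Pi16. Values were put on a log2(TPM + 1) scale, where fold changes of low genes come out too small, and E18 was tested against E16 with limma 3.58.1 (R 4.3.3), using a variance trend on intensity and Benjamini-Hochberg adjustment over 17824 genes. The fit was tested on simulated data with noise drawn independently for each gene. Shifts shared by many genes of a library were not covered. Alternatives changed the pseudocount, filter, scaling, variance model, covariates and libraries, and ran voom on recovered reads. SciPy 1.17.1 gave exact permutation tests and Matplotlib 3.10.9 the figures. Markers and lists were chosen with earlier results of these data known. Named genes were all 10 markers, up to 4 genes with the smallest p per list, defining cell type markers and the 6 nearest profiles, of which 1 is not reported here; Cd4, Cygb, Des, Lmod1, Myocd, Trac, Tgfb1, Tgfb2, Mfap2, Mfap3, Vkorc1, Vkorc1l1, Podxl, Dpp4, Gli1, Ggcx, Nt5e, Entpd1, Ly6a, Ly6c1 and Npdc1 were named after their values were seen.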

Additional observations from a re-analysis of the deposited data

How the results depend on the processing

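The 9 tested markers were higher at E18 in each setting that gave them a value except with the fibrillar collagen score as covariate, where Thy1 (-0.088) and Mfap5 (-0.199) changed sign on the log2 scale; that covariate moves with the day. Pi16 was higher at E18 in the 9 alternatives run for it (pseudocounts, no filter, single libraries left out), with log2 differences from 0.20 to 2.04. The 7 marker calls became 0 without a filter on low values, with the hepatocyte or the fibrillar collagen score as covariate, with a replicate block and without both B libraries, and ran from 0 to 5 when single libraries were left out. In the other settings 5 to 9 were called. The 618 calls over all genes became 0 in those same 5 settings, 347 with a pseudocount of 5, 406 at 5 TPM in 3 libraries, 399 with quantile normalization, 1448 with voom on recovered reads and 4316 with array weights, and ran from 0 to 664 without single libraries. Other listed genes, 50 called, gave 0 in those 5 settings, 90 with array weights and 0 to 52 without single libraries. At an unadjusted p under 0.05 the 5 settings kept 10 of 10, 6, 1, 9 and 9 of 9 markers. Calls split into 314 higher and 85 lower under quantile normalization, 464 and 106 under median-of-ratios scaling, 553 and 68 on rescaling without the hepatocyte and erythroid lists and 542 and 116 of 18711 genes without Gm26917, against 549 and 69 as reported. The causes were not tested. Deviations of libraries with the same letter correlated at 0.10 (A), -0.14 (B) and -0.12 (C), and those with different letters at -0.15 to 0.22. With 3 libraries a day these values cannot decide whether the letters pair the libraries. Leaving out both B libraries or Gm26917 was chosen after seeing the data. Counting precision is lowest for Entpd2, Clec3b and Mfap5 at E16, with 6, 18 and 21 reads over 3 libraries.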
